A study of Mus musculus with 10 samples.

Results

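H3K27me3 peaks of wild-type (WT) CD71+Ter119+ erythroblasts that lay away from promoters and in CpG-poor DNA were examined. They were the autosomal peaks of that library that did not overlap the 1 kb on either side of a protein-coding transcription start site (TSS) and whose 1 kb around the summit, the position of the highest pileup, had a GC content under 50% or an observed/expected CpG ratio under 0.6. The rule found 1856 regions among 4456 autosomal peaks of the library and 50907 peaks in the 6 lists of the series. The remaining autosomal peaks were 1742 CpG-island promoter peaks, 485 CpG-poor promoter peaks and 373 CpG-island distal peaks, where CpG-island means that both limits were met. The regions were selected on the peak calls of this library, on base composition and on place, so values of these kinds are given as description only.

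ChIP-seq of H3K27me3 and of Mtf2 was done on cells sorted from e14.5 fetal liver (FL), the organ in which the red cells of the embryo form. Erythroblasts were CD71+Ter119+ and pro-erythroblasts, the earlier stage, were CD71+Ter119-/lo. WT embryos were Mtf2+/+ and Mtf2-null embryos were homozygous for a constitutive gene-targeted mutation on the C57BL/6 background, carried by every cell of the embryo and not by blood cells alone. H3K27me3 was measured in both genotypes and both fractions and Mtf2 in WT cells of both fractions, with 500000 cells per sample, each against an IgG library of the same genotype and fraction.

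Each condition had 1 library, so the replicate error is unknown and no difference was tested across replicates. Intervals are 95% Wilson intervals that cover counting error only. The WT erythroblast H3K27me3 library held 30054186 unique tags and its IgG library 12345800, and the 6 ChIP libraries ranged from 15669899 to 67169672, with the highest number in Mtf2-null erythroblasts. WT erythroblast H3K27me3 and Mtf2 were called against the same IgG library, and WT pro-erythroblast H3K27me3 and Mtf2 shared another. Among marker genes, 0 of 10 erythroid genes (Gata1, Klf1, Hba-a1 and others) had a WT erythroblast H3K27me3 peak of any class within 5 kb of a TSS. Such a peak was present at Hnf4a of 5 hepatocyte genes, Pax5 and Ebf1 of 5 lymphoid genes, Cebpa of 4 matched myeloid genes and Fli1 of 5 megakaryocyte genes. The CpG-poor distal regions accounted for the peak at Hnf4a only. A promoter peak, which is a narrower measure, was present at 9.68% of all autosomal protein-coding genes. These lists are too small to rank the lineages, so no contrast is drawn.

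H3K27me3 is placed by Polycomb repressive complex PRC2 and marks genes held silent. In mammals PRC2 settles mostly on CpG islands, stretches of DNA that keep their CpG dinucleotides because these are unmethylated, and its accessory subunit Mtf2 binds DNA rich in unmethylated CpG. Away from islands the mark is usually found as broad, low domains or as spread from a nearby island, and silent repeats carry other marks more often.

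The sequences at 5 summits show what the composition limits select. The first is the strongest CpG-island promoter peak of the library, at Unc45b, a chaperone of muscle myosin, given as a contrast after its values were seen. The next 3 are the highest-scoring CpG-poor distal regions, near or in Icam5, a neuronal adhesion molecule, Josd2, a deubiquitinase, and Azin1, a regulator of polyamine synthesis, and the last is the highest-scoring intronic one, in Ltbp4, which binds latent TGF-beta. Each sequence is 300 bases centred on the summit, from NCBIM37 (mm9), and capitals mark CG dinucleotides.
Unc45b, CpG-island promoter, chr11:82744594-82744893, plus strand: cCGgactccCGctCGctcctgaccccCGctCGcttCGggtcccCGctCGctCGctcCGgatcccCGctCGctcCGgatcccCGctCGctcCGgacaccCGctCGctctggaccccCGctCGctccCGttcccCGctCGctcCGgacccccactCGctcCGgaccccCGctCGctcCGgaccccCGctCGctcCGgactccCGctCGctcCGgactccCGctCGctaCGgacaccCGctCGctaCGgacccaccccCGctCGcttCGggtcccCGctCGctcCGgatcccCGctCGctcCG
Icam5, chr9:20839898-20840197, plus strand: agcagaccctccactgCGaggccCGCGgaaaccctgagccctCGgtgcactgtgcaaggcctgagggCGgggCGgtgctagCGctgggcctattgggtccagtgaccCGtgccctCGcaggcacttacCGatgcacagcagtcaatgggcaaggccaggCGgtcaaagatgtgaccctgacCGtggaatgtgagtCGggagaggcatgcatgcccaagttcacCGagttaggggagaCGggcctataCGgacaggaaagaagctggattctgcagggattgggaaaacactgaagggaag
Josd2, chr7:51730420-51730719, plus strand: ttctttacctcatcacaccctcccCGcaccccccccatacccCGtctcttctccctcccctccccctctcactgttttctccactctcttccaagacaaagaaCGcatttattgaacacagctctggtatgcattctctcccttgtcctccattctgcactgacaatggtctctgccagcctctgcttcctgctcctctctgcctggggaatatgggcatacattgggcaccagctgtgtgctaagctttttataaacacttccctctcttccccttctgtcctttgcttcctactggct
Azin1, chr15:38401578-38401877, plus strand: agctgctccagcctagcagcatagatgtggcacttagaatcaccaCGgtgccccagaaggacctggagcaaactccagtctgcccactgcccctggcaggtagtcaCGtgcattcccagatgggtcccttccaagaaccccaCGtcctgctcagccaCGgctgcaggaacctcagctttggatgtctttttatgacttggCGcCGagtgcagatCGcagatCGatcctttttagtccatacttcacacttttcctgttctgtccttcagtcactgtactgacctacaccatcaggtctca
Ltbp4, chr7:28113918-28114217, plus strand: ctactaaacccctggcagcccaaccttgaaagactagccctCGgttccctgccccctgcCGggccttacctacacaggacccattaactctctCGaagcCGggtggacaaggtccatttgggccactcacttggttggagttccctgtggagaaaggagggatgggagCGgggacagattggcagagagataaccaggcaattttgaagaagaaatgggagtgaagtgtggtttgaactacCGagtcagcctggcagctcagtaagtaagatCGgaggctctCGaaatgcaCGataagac
The Unc45b window held 50 CG dinucleotides, against 16 at Icam5, 3 near Josd2, 8 near Azin1 and 9 in Ltbp4.

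A further 5 windows are shown because an alternating run of CG or CA dinucleotides lay at the summit. They are in Ptk2b, which encodes a cytoplasmic tyrosine kinase and holds one of the 3 regions with the highest fold enrichment, 9.18 kb upstream of Otx2, a homeobox gene of forebrain and eye, and at 3 other sites with both kinds of run, chosen after their values were seen. Capitals mark the runs, of at least 4 CG or GC pairs and at least 6 CA or TG pairs read in either phase.
Ptk2b intron, chr14:66868694-66868993, plus strand: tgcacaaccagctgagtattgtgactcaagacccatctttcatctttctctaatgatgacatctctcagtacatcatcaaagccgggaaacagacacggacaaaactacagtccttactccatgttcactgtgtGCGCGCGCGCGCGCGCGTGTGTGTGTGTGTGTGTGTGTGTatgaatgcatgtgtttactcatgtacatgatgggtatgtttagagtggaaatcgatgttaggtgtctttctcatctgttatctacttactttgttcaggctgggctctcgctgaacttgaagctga
Otx2 upstream, chr14:49296350-49296649, plus strand: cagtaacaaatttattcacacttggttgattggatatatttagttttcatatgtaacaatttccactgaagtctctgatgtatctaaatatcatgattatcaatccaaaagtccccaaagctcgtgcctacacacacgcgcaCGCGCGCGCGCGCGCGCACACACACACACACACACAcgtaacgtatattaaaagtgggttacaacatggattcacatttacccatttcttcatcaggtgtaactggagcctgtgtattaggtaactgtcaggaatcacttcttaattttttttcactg
Hnrnpk, 69.3 kb upstream, chr13:58573824-58574123, plus strand: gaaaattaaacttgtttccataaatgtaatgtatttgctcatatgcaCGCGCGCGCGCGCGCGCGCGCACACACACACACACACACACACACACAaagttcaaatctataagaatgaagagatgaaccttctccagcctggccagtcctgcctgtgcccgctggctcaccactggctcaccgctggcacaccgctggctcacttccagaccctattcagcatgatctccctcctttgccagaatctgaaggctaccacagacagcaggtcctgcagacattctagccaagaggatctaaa
1700101G07Rik, 14.1 kb upstream, chr2:169393341-169393640, plus strand: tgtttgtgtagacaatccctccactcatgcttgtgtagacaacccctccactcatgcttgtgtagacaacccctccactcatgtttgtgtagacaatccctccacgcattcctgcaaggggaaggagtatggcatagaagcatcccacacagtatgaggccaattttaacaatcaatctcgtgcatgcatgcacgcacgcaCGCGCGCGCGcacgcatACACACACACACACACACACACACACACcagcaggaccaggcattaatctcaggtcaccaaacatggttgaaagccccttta
Lrrc8b, 12.1 kb upstream, chr5:105832544-105832843, plus strand: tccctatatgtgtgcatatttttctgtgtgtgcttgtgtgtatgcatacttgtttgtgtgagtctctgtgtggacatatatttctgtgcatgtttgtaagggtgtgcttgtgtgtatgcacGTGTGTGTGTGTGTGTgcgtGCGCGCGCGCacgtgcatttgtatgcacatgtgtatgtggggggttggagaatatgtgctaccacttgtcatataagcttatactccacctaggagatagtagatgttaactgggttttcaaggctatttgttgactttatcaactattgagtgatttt
In Ptk2b the CG run spanned 16 bases and the CA run 22 bases, and near Otx2 they spanned 16 and 20 bases.

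The CpG-poor distal regions were short and mostly close to the calling limit. Median length was 749.5 bp, with a range from 180 to 10498 bp, and the median tag count was 26, against 60 tags and 1428 bp for CpG-island promoter peaks. The median score, which is 10 times the −log10 of the p of the peak caller, was 57.3 in the CpG-poor distal regions, 61.9 in CpG-poor promoter peaks, 88.2 in CpG-island distal peaks and 109.6 in CpG-island promoter peaks. Of the 1856 regions, 1113 scored under 60, where the lowest score was 50.02, and 94 scored at least 100. The false discovery rate that the peak caller estimated was above 20% for 1215 regions (65.5%) and at most 5% for 93. Fold enrichment over IgG separated the classes less, with medians of 7.86, 7.86, 8.56 and 8.98 in the same order.

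**Figure D1:**
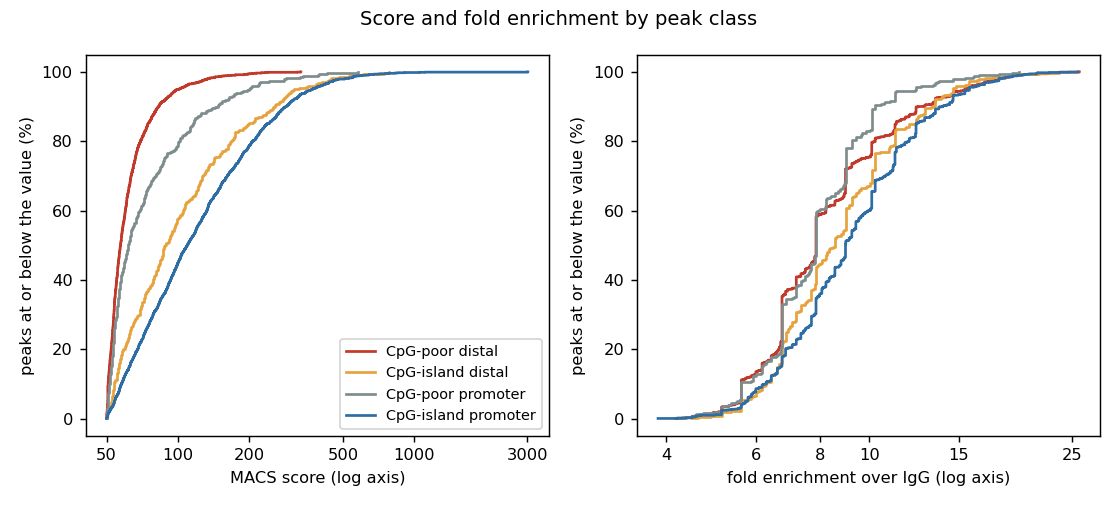
Cumulative share of peaks (%) at or below each MACS score (left, log axis) and each fold enrichment over IgG (right, log axis), with 1 line for each of the 4 peak classes of the WT erythroblast H3K27me3 library. The CpG-poor distal line rises first in score, with a median of 57.3, while the fold enrichment lines lie close together.

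Base composition, the basis of the rule, had a median GC of 45.9% and a median CpG ratio of 0.231, and the 1 kb window held a median of 12 CpG. Autosomal 1 kb tiles had medians of 41.7% and 0.161, so the regions lay somewhat above the bulk genome on both scales. Both limits were missed by 1373 regions (74.0%), the CpG limit alone by 454 and the GC limit alone by 29, and 8 windows held no CpG. On either side of the CpG limit stood chr2:157769938-157770568, a member with a ratio of 0.5996 and a score of 57.2, and chr2:130996471-130998054, no member, with 0.6009 and a score of 253. On either side of the GC limit stood chr10:82510849-82511821, a member with 49.9%, and chr7:149469436-149470129, no member, with 50%.

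**Figure D2:**
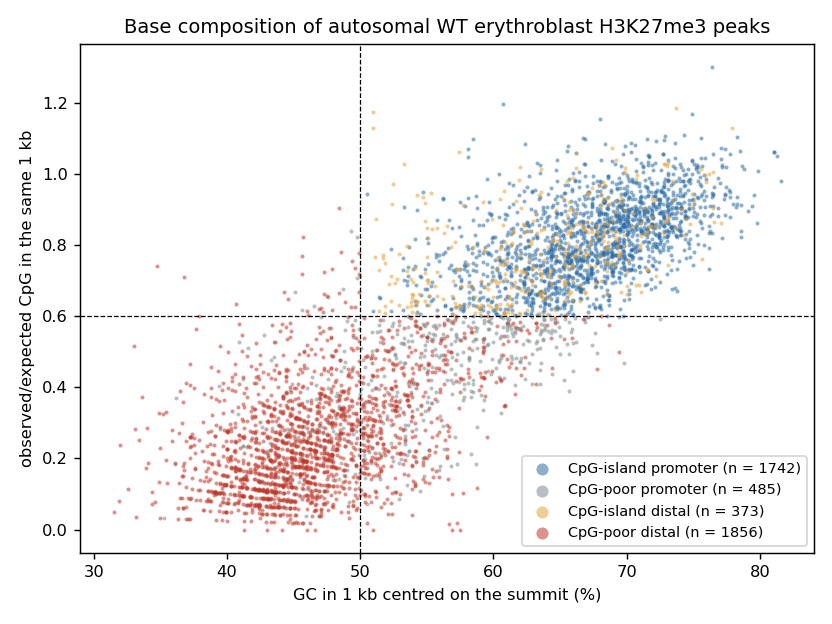
GC content (%, x axis) against observed/expected CpG (y axis) in the 1 kb centred on each summit, with 1 point per autosomal peak, coloured by class. Dashed lines mark the limits of 50% and 0.6, and most CpG-poor distal regions (1373 of 1856) fall in the lower left field, below both.

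The strongest region, chr9:20838543-20842748, scored 331 with 172 tags at a 9.17-fold enrichment, and its summit lay in an exon of Icam5, 3.57 kb downstream of the TSS. A promoter H3K27me3 peak lay 0.142 kb away. The second, chr7:51730493-51734390, lay 4.28 kb downstream of the nearest Josd2 TSS in intergenic DNA and scored 319 with 158 tags at 9.53-fold. The third, chr15:38400273-38402802, scored 239 with 103 tags at 11.3-fold and lay 25.4 kb from the nearest Azin1 TSS and 434.5 kb from the closest promoter peak. In Ltbp4, chr7:28113673-28117087 scored 226 with 116 tags at 8.98-fold, 0.171 kb from a promoter peak. Near Nr2e1, an orphan nuclear receptor gene of neural stem cells, chr10:42297096-42299134 scored 174 with 78 tags and lay 0.022 kb from a promoter peak. Thus strong regions stood both beside promoter peaks (Icam5, Ltbp4 and Nr2e1) and far from them (Azin1).

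Fold enrichment ranked other regions first. The highest value, 25.8-fold with 50 tags, was on chromosome 18, 6.97 kb upstream of 8030462N17Rik, the next was 23.6-fold with 30 tags at chr3:11154130-11154929, 139 kb from any protein-coding TSS, and the third was 23.5-fold with 38 tags at chr14:66868314-66869324 in an intron of Ptk2b. Of these, the chromosome 18 and Ptk2b summits held both a CG and a CA run, while at the chromosome 3 summit 94.4% of 16-base words occurred at least 100 times in the genome.

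Position was described by the summit. Introns held 621 summits (33.5%), exons 71 (3.83%), the stretch from 1 to 5 kb upstream of a TSS 240 (12.9%) and intergenic DNA 924 (49.8%). Of the autosomal bases outside the 1 kb around TSS, introns made up 32.6%, exons 2.05%, the upstream stretch 5.14% and intergenic DNA 60.2%. Upstream stretches and exons thus held more of the summits than of the bases, introns about as much and intergenic DNA less. In all, 42.5% (40.2 to 44.7%) of summits were inside a protein-coding gene, 25.5% (23.6 to 27.5%) no more than 5 kb and 38.8% no more than 10 kb from a TSS, and 17.8% more than 100 kb from one. Among the 94 regions scoring at least 100, 41.5% lay no more than 5 kb from a TSS. The median distance was 18.4 kb, against 9.39 kb for CpG-island distal peaks. In addition, 1.83% of summits lay in an annotated UTR.

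Promoter peaks of the same library lay close to a minority of the regions. The gap was at most 1 kb for 118 regions (6.36%), at most 10 kb for 16.8% (15.1 to 18.5%) and over 50 kb for 1318 (71.0%), with a median of 217 kb. For CpG-island distal peaks it was at most 1 kb in 7.77% and at most 10 kb in 26.3%, with a median of 87.2 kb. The share within 10 kb was 10.6% among regions that missed both composition limits. Of the 94 scoring at least 100, 28.7% lay within 10 kb of a promoter peak that also scored at least 100. The 118 regions within 1 kb had a median GC of 51.3% and 66.9% of them were inside a gene, while the 1318 beyond 50 kb had a median GC of 44.8% and 37.9% were inside a gene. Of 1711 groups formed by joining regions no more than 10 kb apart, 1606 held a single region and 28 held 3 or more. The fullest held 7 regions over 13.2 kb at Hlx, a homeobox gene, with a median fold enrichment of 6.42 and 207 tags in all. The groups with 4 regions lay near Ddn and Wnt1, Pim1, Tnrc18, Nxph4 and Shmt2, Lbx1, Arf1 and Wnt3a, and Nkx2-3, and at the rRNA array described next. These loci were named from the clusters after their values were seen.

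A ribosomal locus was also among the regions. On chr8:126062125-126148581, an 86.5 kb stretch with 51 annotated rRNA genes of the 5S family, 8 regions and 6 CpG-island distal peaks were called, and the 8 regions held 1191 tags. 5S rRNA is a component of the large ribosomal subunit and its genes stand in a tandem array, so reads of near-identical copies could be assigned to any of them and the single values are uncertain. The 8 regions had GC contents from 59.0 to 61.3%, entered through the CpG ratio, scored from 59.0 to 199 and were enriched 4.92- to 7.28-fold. The longest region of all, chr8:126138084-126148581, with 10498 bp, was among them. A pro-erythroblast Mtf2 peak overlapped 8 of 8 and a WT pro-erythroblast H3K27me3 peak 5 of 8, whereas erythroblast Mtf2 and both Mtf2-null lists overlapped 0 of 8, which allows a share of up to 37.5%. At chr8:126138084-126148581 the H3K27me3 peak of pro-erythroblasts had 28 tags at 13.9-fold and the Mtf2 peak 167 tags at 9.36-fold.

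Outside the array, the highest-scoring regions at a non-coding TSS were chr2:25146457-25148039, with a score of 198 and 68 tags in an exon of Grin1, the NMDA receptor subunit gene, 0.699 kb from the start of E130003G02Rik, and chr4:109329089-109330795, with a score of 168 and 77 tags, 0.331 kb from the start of the lincRNA 9630013D21Rik and 8.10 kb from Cdkn2c, a cyclin-dependent kinase inhibitor gene. In all, 34 regions (1.83%) had their summit within 1 kb of a non-coding TSS, of which 9 were rRNA, 7 lincRNA and 3 miRNA genes. CpG-island distal peaks did so in 14.48% of cases. The highest-scoring region more than 100 kb from any TSS was chr5:79932112-79932291, with 25 tags and a score of 135. Its summit window held a CA run of 28 bases.

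Alternating dinucleotide runs lay at part of the summits, in these regions and in other classes. In the 300 bases centred on the summit, 225 regions (12.1%, 10.7 to 13.7%) held a CG run of at least 8 bases, 341 (18.4%, 16.7 to 20.2%) a CA run of at least 12 bases, and 189 held both. In 300-base windows taken every 200 kb along the autosomes the shares were 0.142% and 4.46%, and in windows 1700 to 2000 bp from the same summits they were 0.539% and 5.44%. Counted in bins of 100 bp, the 2 bins next to the summit held CG runs in 109 and 119 regions, while the 30 bins more than 500 bp away held them in 0 to 8. For CA runs the central bins gave 150 and 180 regions and the outer bins 17 to 50. CG runs were thus near the outer level from the second bin on, while CA runs were also present throughout the surrounding DNA and were more frequent at the summit. CpG-poor promoter summits, the class closest in composition, held a CG run in 5.77% of cases, a CA run in 7.01% and both in 4.12%, also more frequent in the 2 central bins (13 and 15 peaks for CG against 0 to 6 in the outer bins, 18 and 14 for CA against 3 to 10). CpG-island promoter summits held a CG run in 15.6% of cases but a CA run in 0.631%, and 0.402% held both. CpG-island distal summits held a CG run in 10.5% of cases and a CA run in 1.07%. Over all 4456 autosomal peaks the shares were 12.7% for CG and 8.75% for CA. The CG share of the regions was thus near that of the whole library, and their CA share was above it.

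**Figure D3:**
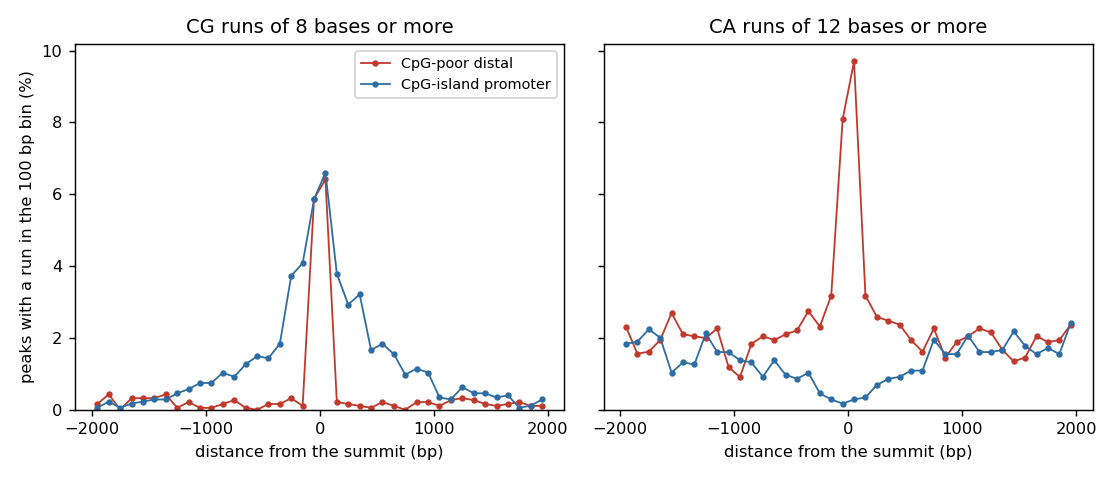
Share of peaks (%, y axis) with a CG run of at least 8 bases (left) or a CA run of at least 12 bases (right) in each 100 bp bin, by distance from the summit (bp, x axis), for CpG-poor distal and CpG-island promoter peaks. In CpG-poor distal regions both runs rise in the 2 central bins, while at CpG-island promoters CG runs fall off gradually and CA runs are at their lowest at the summit.

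Regions with a CG run were more enriched than the others within the same library, which is description since fold enrichment belongs to the peak call. Their median fold was 12.35 (interval of the median 11.98 to 13.35, n = 225) against 7.70 (7.49 to 7.81, n = 1631). The 189 regions with both runs had a median of 12.32, and the 152 with a CA run alone 7.86, close to the 7.65 of the 1479 with neither. Higher enrichment thus went with the CG run and not with the CA run alone. In the run set, chr13:58573048-58574624, 69.3 kb upstream of Hnrnpk, held 67 tags at 11.2-fold, chr2:169393296-169393692 held 23 tags at 11.2-fold and chr5:105832281-105833268 held 45 tags at 17.8-fold.

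The same rule of place and composition was then applied to the other lists. In Mtf2-null pro-erythroblast H3K27me3, 17.9% (15.9 to 20.1%) of 1240 CpG-poor distal peaks held a CG run and 30.8% a CA run, with a median fold of 10.0 with the CG run and 6.38 without. In Mtf2-null erythroblast H3K27me3 the CG share was 0.552% of 5077 peaks, in WT pro-erythroblast H3K27me3 0.397% of 4280, in pro-erythroblast Mtf2 0.479% of 24651 and in erythroblast Mtf2 0.234% of 4699. Thus CG runs were most frequent at the summits of 2 H3K27me3 libraries, WT erythroblasts and Mtf2-null pro-erythroblasts. The cause was not tested, and the Mtf2-null pro-erythroblast list had a median FDR of 100%, with 0 peaks at 5% or less. The CG shares of the other lists were lower but above the 0.142% of windows taken along the autosomes. The interval of erythroblast Mtf2, 0.131 to 0.419%, included that value. The CA shares of these lists, in the order above, were 3.60%, 1.26%, 0.467% and 0.447%, below the 4.46% of the same windows.

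Repeated DNA was the second feature of the summits. As no repeat annotation was used, each 300-base window was scored by the share of its 16-base words that occur at least 100 times in the genome. The median share was 15.1% at the 1856 summits, 1.75% in their flanks and 2.46% in the windows taken along the autosomes. More than 50% of words were repeated at 397 summits (21.4%), against 4.55% of flank windows, 11.4% of windows along the autosomes, 0.804% of CpG-island distal summits and 0 of 1742 CpG-island promoter summits (which allows up to 0.172%). The word GAGTTCCA, found in the B1 family of short interspersed elements and searched on both strands, was in 9.05% of the summit windows, 3.58% of flank windows and 3.02% of windows along the autosomes. The words CAATGGAG, CCTATAGG and ATCAGCTC were in 6.52%, 2.86% and 2.53% of summit windows and in 0.997%, 0.673% and 1.24% of flank windows. Along the autosomes they were in 2.84%, 1.06% and 1.13% of windows. The words were picked after the summits had been read, and no repeat family was assigned to the summits.

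Among sequence motifs searched on both strands in the 1 kb around the summit, AGATAA, the core that GATA factors bind, was in 37.1% of the regions, in 50.4% of all autosomal 1 kb tiles and in 41.9% of tiles whose GC lay between 42.9% and 49.9%, the quartiles of the regions. The E-box CAGCTG was in 37.6% against 31.2% of all tiles and 40.2% of the GC-restricted tiles. CCACACCC, to which Klf1 binds, was in 10.5% against 5.99% and 8.21%, and GCGC in 51.3% against 25.6% and 34.8%. A CA run of 12 bases was in 28.1% against 13.7% and 15.4%, and the CG run CGCGCGCG, which itself contains GCGC, in 11.7% against 0.454% and 0.536%. This search took CGCGCGCG alone, whereas the CG runs counted at the summits also included GCGCGCGC, so the shares are not the same measure.

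Mtf2-null erythroblasts were compared next, to see which of the regions had an H3K27me3 peak without Mtf2. No overlapping Mtf2-null erythroblast peak was called for 98.5% (97.9 to 99.0%) of the regions, against 99.4% of all 4456 autosomal peaks, of which 0.606% were overlapped. The 27 regions that were overlapped were all the overlapped peaks of the library, since 0 of 373 CpG-island distal, 0 of 485 CpG-poor promoter and 0 of 1742 CpG-island promoter peaks were, which allows shares of up to 0.804%, 0.619% and 0.172%. The 27 overlaps were 0.526% of the 5129 autosomal peaks of the Mtf2-null list. Of these 5129 peaks, 5077 were themselves CpG-poor and distal by the same rule. The contrast between classes therefore cannot be separated from the make-up of that list. Near Josd2, chr7:51730493-51734390 had 166 tags at 3.95-fold in Mtf2-null erythroblasts against 158 tags at 9.53-fold in WT. Upstream of Otx2, chr14:49295910-49297105 had 44 tags at 22.5-fold in WT and 57 tags at 9.31-fold in Mtf2-null cells, and in C330046G03Rik chr10:77300342-77301256 had 38 tags at 6.58-fold and 76 tags at 5.88-fold. These are the 3 highest-scoring overlapped regions of the WT library, and the median fold of all peaks was 5.25 in the Mtf2-null list and 8.2 in the WT list, so the folds of the pair are given with no direction drawn. A region with no Mtf2-null peak is one where the peak caller did not reach its limit, which is not the same as an absence of the mark.

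Mtf2-null pro-erythroblast peaks overlapped 59 regions (3.18%, 2.47 to 4.08%), against 1.82% of all autosomal peaks. From the other side, 59 of the 1331 autosomal peaks of the Mtf2-null list (4.43%) overlapped a region. Of those 1331 peaks, 1240 were themselves CpG-poor and distal. The median FDR in that list was 100%, with 0 peaks at 5% or less. Of the 59 regions, 41 held a CG or CA run and 2 had more than 50% repeated words. The overlapping peaks had a median of 32 tags and 8.37-fold enrichment. Near Josd2, where no run lay at the summit, the peak held 33 tags at 6.25-fold.

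WT pro-erythroblast H3K27me3 peaks overlapped 62 regions (3.34%, 2.61 to 4.26%). Of the 4695 autosomal peaks of that list, 4280 were themselves CpG-poor and distal. Its median FDR was 11.23%, with 1 of 4992 peaks at 5% or less. A region with no overlapping peak may thus still have been marked at the earlier stage. The overlapped share was 6.31% in all autosomal peaks, 9.38% (6.82 to 12.8%) in CpG-island distal, 8.87% in CpG-poor promoter and 8.09% (6.90 to 9.47%) in CpG-island promoter peaks. The interval of the regions lay below those of the other classes. Their median score was also lower, at 57.25 against 88.2, 61.9 and 109.6 in the same order of classes. The share was split by score for the regions only, so the contrast between classes cannot be separated from score. The share was 1.38% among regions that missed both composition limits, 1.62% when at least 50% of a region had to be covered and 5.44% for a peak within 1 kb, and these were not computed for the other classes. By score of the region, it was 1.93% of the 726 regions scoring under 55, 1.29% of those from 55 to 60 and 2.11% of those from 60 to 70, 5.58% of the 269 between 70 and 100 and 21.3% (14.2 to 30.6%) of the 94 at 100 or more. The last share covered 20 regions, among them those of the 5S array that scored 125, 133, 136 and 199. Closeness to a promoter peak went the same way as score, with 17 of 118 regions (14.4%) within 1 kb of one and 21 of 1318 (1.59%) beyond 50 kb. At Icam5 the pro-erythroblast peak held 19 tags at 9.14-fold, in Ltbp4 20 tags at 10.96-fold, and at chr8:87305795-87308848, in an intron of Nfix, a nuclear factor I gene, 16 tags at 7.31-fold against 120 tags at 10.2-fold in erythroblasts. These 3 were the overlapped regions with the highest erythroblast scores, so no direction is drawn from the tags, and the pro-erythroblast library held 18945784 unique tags. Of the 62, 41 (66.1%) lay inside a gene and 5 held a CG or CA run.

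Mtf2 peaks of pro-erythroblasts overlapped 67 regions (3.61%, 2.85 to 4.56%), against 1.82% of all autosomal peaks and 0.230% (0.0893 to 0.589%) of CpG-island promoter peaks. Mtf2 peaks of erythroblasts overlapped 54 (2.91%, 2.24 to 3.78%), against 1.26% of all peaks, 0.0574% of CpG-island promoter peaks and 0 of 373 CpG-island distal peaks. Conversely, 0.302% of the 25805 pro-erythroblast and 1.13% of the 4771 erythroblast Mtf2 peaks on autosomes overlapped a region. Of these Mtf2 peaks, 24651 and 4699 were themselves CpG-poor and distal. Here too the contrast between classes cannot be separated from the make-up of the lists. The median FDR of the erythroblast Mtf2 list was 8.42%, with 0 peaks at 5% or less, and that of the pro-erythroblast Mtf2 list 0.12%. By score of the region, erythroblast Mtf2 overlapped 2.89% of those under 55, 2.60% of those from 70 to 100 and 0 of the 94 at 100 or more, which allows up to 3.19%. Summits made mostly of repeated words were frequent among them. More than 50% of words were repeated in 49 of the 67 (73.1%) and 47 of the 54 (87.0%), against 21.4% of all 1856. Outside the 5S array the highest-scoring pro-erythroblast example was chr4:100985070-100987313, 48.8 kb upstream of the kinase gene Jak1, with 107 H3K27me3 tags, 25 Mtf2 tags at 8.14-fold and 46.0% repeated words, whose 1 kb held 0 CpG. The erythroblast examples were chr12:61935040-61935646, 689 kb from Lrfn5, with 28 H3K27me3 and 26 Mtf2 tags, and chr3:54632692-54633395, 21.5 kb from Rfxap, with 30 and 15 tags, where 61.4% and 80% of words were repeated.

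A further erythroblast Mtf2 example stood apart. At chr11:34495168-34496159, in an intron of Dock2, a Rac exchange factor of blood cells, 163 H3K27me3 tags gave 4.18-fold and 135 Mtf2 tags 7.37-fold, and the WT pro-erythroblast H3K27me3 peak had 135 tags at 4.91-fold. In the assembly 221 bases of its 1 kb window are unknown, so its composition rests on the other 779. Of the other lists, 3 overlapped the same 5 regions, chosen after their values were seen, and in each case these were WT pro-erythroblast H3K27me3 and Mtf2 of both stages. They were chr1:173805497-173806255, chr3:41866361-41867343, chr3:51421025-51421807, chr3:139223655-139224306 and chr4:95177541-95178501, and repeated words made up from 38.2 to 95.1% of their summits. Within each stage, H3K27me3 and Mtf2 were called against the same IgG library, so these calls are not independent. At chr4:95177541-95178501, 46.3 kb upstream of Fggy, H3K27me3 had 44 tags at 13.0-fold in erythroblasts and 34 at 19.6-fold in pro-erythroblasts, and Mtf2 was enriched 14.3-fold in erythroblasts and 30.4-fold in pro-erythroblasts. No other list overlapped 1629 regions (87.8%), 1 list 190 and 2 lists 32.

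**Figure D4:**
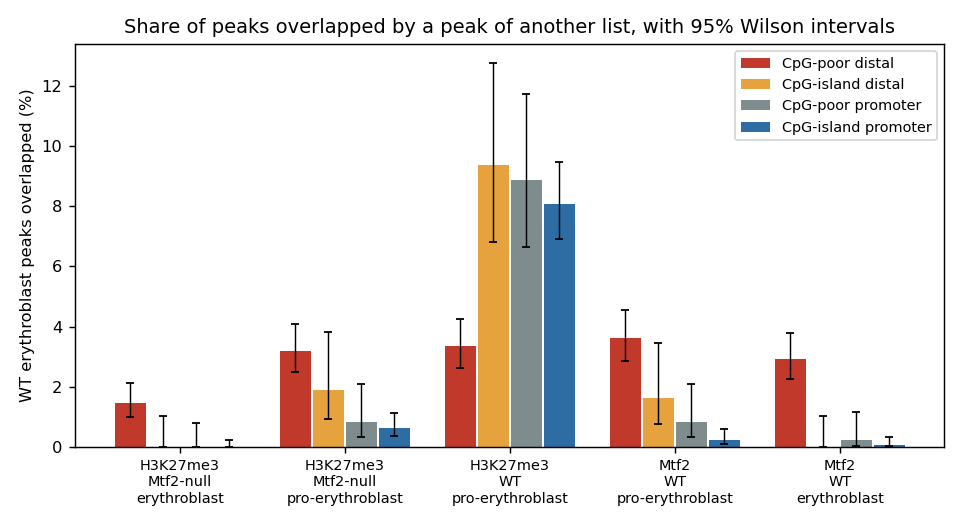
Share (%, y axis) of WT erythroblast H3K27me3 peaks of each class that a peak of another list overlaps by at least 1 base, for the 5 other lists (x axis), with bars for shares and lines for 95% Wilson intervals. CpG-poor distal regions have the lowest share with WT pro-erythroblast H3K27me3 (3.34%) and the highest with the 4 other lists. Most peaks of all 5 lists are themselves CpG-poor and distal, so the higher shares with the 4 other lists cannot be separated from their make-up. The lower share with WT pro-erythroblast H3K27me3 cannot be separated from the lower score of the regions.

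Sorted by what lay at the summit, the regions fell into 371 with a CG or CA run, 372 with more than 50% repeated words and no run, 8 in the 5S array and 1105 remaining. The run set was overlapped by Mtf2-null pro-erythroblast H3K27me3 in 11.1% (8.25 to 14.6%) of cases, against 0.538% of the repeated set and 1.45% of the remaining. Pro-erythroblast Mtf2 overlapped 12.9% (9.87 to 16.7%) of the repeated set, 0.270% of the run set and 0.905% of the remaining, and erythroblast Mtf2 12.6%, 0 of 371 (which allows up to 0.809%) and 0.633%. WT pro-erythroblast H3K27me3 overlapped 3.49% of the repeated set, 0.539% of the run set and 3.80% of the remaining. Mtf2 overlap thus stood mainly at repeated summits, and overlap with Mtf2-null pro-erythroblasts at run summits. The sets also differed in place, with median TSS distances of 26.3 kb, 39.5 kb and 11.2 kb for the run, repeated and remaining sets. These sets were formed after the values were seen, and a 16-base word that occurs many times can gather reads from other copies, a part that was not tested.

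**Figure D5:**
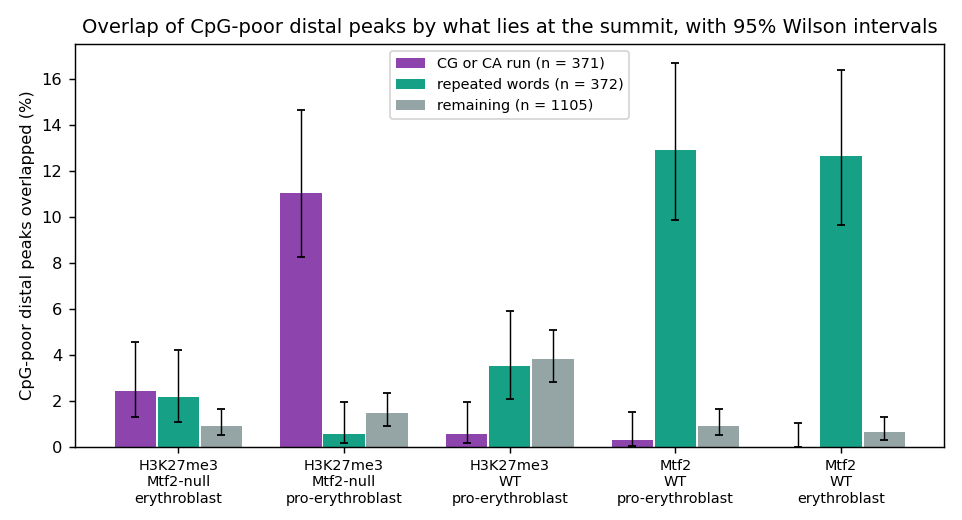
Share (%, y axis) of CpG-poor distal regions overlapped by each of the 5 other lists (x axis), for regions with a CG or CA run, with repeated words, and the remaining, with 95% Wilson intervals as lines. Bars for Mtf2 are tallest in the repeated set (12.9% and 12.6%), and the bar for Mtf2-null pro-erythroblasts is tallest in the run set (11.1%), with the 8 regions of the 5S array left out.

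Genes were counted as holding a region when a summit lay between 5 kb upstream and the end of the gene, which 870 of 21281 autosomal protein-coding genes (4.09%) did. Of the 870, 306 (35.2%) also had a peak at a promoter, against 9.68% of all genes, and their median length was 53.9 kb against 15.5 kb. Length moved with the count, since 1.65% of genes up to 10 kb, 3.34% of those from 10 to 50 kb, 7.69% of those from 50 to 200 kb and 19.1% of longer genes held a region. By symbol, the gene models with most summits were Gm20388 with 21, an annotated span of 4435 kb that covers the 5S array, Fgfr2 with 7 over an annotated 3009 kb, and Spnb4, Nxph4, Ostm1, Gata4 and Wnt3a with 4 each. Of these, Nxph4, which encodes a neurexophilin, is 9.09 kb long.

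Homeobox genes outside the Hox clusters held a region in 26 of 117 cases (22.2%, 15.6 to 30.6%), at a median gene length of 9.12 kb. A promoter peak was also present at 20 of the 26, and at 79 of all 117 (67.5%). The highest scores were at Lhx5 (149, 65 tags, intron), Otx1 (135, 54 tags, exon) and Barx1 (120, 65 tags, exon), all regulators of patterning. Hox genes did so in 11 of 39 (28.2%), where 1 region can count for neighbouring genes. BMP, TGF-beta, Fgf and hedgehog genes did so in 14 of 87 (16.1%), such as Nodal (score 81.4, 32 tags) and Fgf2 (84.3, 40 tags), Fox, Sox and T-box genes in 10 of 70 (14.3%), led by Tbx2 (95.4, 36 tags), and Wnt pathway genes in 6 of 61 (9.84%), led by Wnt3a (93.8, 42 tags). For bHLH genes it was 4 of 58, with Hes5, a Notch target, at 91.3 with 41 tags. In the Wnt list, 5 of the 6 genes also had a promoter peak, as did 30 of all 61 (49.2%).

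Genes of neurons, matrix and other families were counted alike. Potassium channel genes held a region in 12 of 96 (12.5%), led by Kcnip1 (score 95.2, 38 tags at 19.1-fold), axon guidance genes in 8 of 67 (11.9%), calcium and sodium channel genes in 4 of 38, and neurotransmitter receptor genes in 9 of 94 (9.57%), led by Grin1. A promoter peak was also present at 4 of the 12 potassium channel, 5 of the 8 axon guidance, 1 of the 4 calcium and sodium channel and 2 of the 9 receptor genes. Over all genes of these lists, in the same order, the promoter peak shares were 33.3%, 38.8%, 39.5% and 23.4%. Median gene lengths in these lists were 27.5, 58.5, 93.1 and 33.8 kb, above the 15.5 kb of all genes. The counts were 8 of 103 for collagen and matrix, 5 of 64 for cadherin, 18 of 341 for solute carrier, 14 of 394 for zinc finger, 2 of 92 for keratin and 2 of 1424 (0.140%) for olfactory and vomeronasal receptor genes. The last list, of genes with a median length of 0.966 kb, stood below the 4.09% of all genes.

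Blood and liver genes were counted in the same way. Among 26 erythroid genes 3 held regions, namely Ank1, the erythrocyte ankyrin, with 2 (the stronger 3.86 kb upstream of a TSS, score 76.2, 26 tags), and, with 1 each, Sox6 and Bcl11a, repressors of embryonic globin genes (69.1 with 28 tags and 60.4 with 26 tags). Among 18 megakaryocyte and stem cell genes Gata2 held 2 regions (highest score 64.8), among 16 hepatocyte genes Foxa1 (65.2) and Hnf4a (57.3) held 1 each, and among 20 Polycomb genes Pcgf2 did (57.8). The count was 0 of 17 lymphoid and 0 of 14 myeloid genes, which allow shares of up to 17.6% and 21.4%. The lists are small and their intervals wide, so that of the erythroid genes, 4.0 to 29.0%, includes the 4.09% of all genes.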

How the data were processed

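The authors aligned ChIP-seq reads to mm9 with Bowtie2 2.2.3 and called peaks with MACS 1.3.7 against IgG, as the submitters' processing notes name the tools. Calls used a tag size of 25, a p limit of 1e-05 and a 300 bp band, per the file headers. The authors' methods state replicates, and whether these were pooled is not given in the sources used here. The deposited tag count is the number of reads in a peak, the deposited score is 10 times the −log10 of its p, the deposited fold enrichment is a ratio over local IgG, and the FDR column, as deposited, is in percent.

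GENCODE M1 on NCBIM37 gave 69963 TSS of 22367 protein-coding genes. An overlap needed 1 shared base. Composition was read in 1 kb at the summit, and runs and repeated words in 300 bases. Steps were tested on simulated data in Python 3.11.15, numpy 2.4.6, pandas 2.3.3 and scipy 1.17.1. The regions, gene lists, markers and words were chosen with earlier results of these data known, and a further gene list is not reported here. Named regions were the strongest by score, fold, place and overlap, and named genes up to 3 per list by score.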

Additional observations from a re-analysis of the deposited data

How the results depend on the processing

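No paired analysis was possible because each condition had 1 library and no test compared replicates. Of 100 values recomputed, 60 stayed within the interval of the value reported, or within 1.5 times for the count of regions, and 40 did not. The cause was not tested except where the setting itself removes regions.

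With a score of at least 100 the number of regions was 94 and with an FDR of at most 5% it was 93. In each case the same limit was put on the promoter peaks to which gaps were measured. Under these settings, in that order, the median fold was 9.39 and 9.24, the share in genes 47.9% and 48.4%, within 5 kb of a TSS 41.5% and 40.9%, overlapped by WT pro-erythroblast H3K27me3 21.3% and 21.5%, by pro-erythroblast Mtf2 6.38% and 6.45%, by erythroblast Mtf2 0% in both, within 10 kb of a promoter peak 28.7% and 29.0%, and without a Mtf2-null erythroblast peak 97.9% in both (97.87% and 97.85%). At a score of at least 100, pro-erythroblast Mtf2 overlapped 6 regions. Among them were those of the 5S array that scored 125, 133, 136 and 199, which pro-erythroblast H3K27me3 also overlapped.

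With members at least 5 kb from a TSS the share in genes was 35.4%, within 5 kb of a TSS 0% by construction, with WT pro-erythroblast H3K27me3 2.504%, with pro-erythroblast Mtf2 4.57%, with erythroblast Mtf2 3.83% and within 10 kb of a promoter peak 4.93%. With both CpG limits missed the shares were 38.6% in genes, 19.4% within 5 kb of a TSS, 1.38% with WT pro-erythroblast H3K27me3 and 10.6% within 10 kb of a promoter peak. Counted to 50 kb, the last share was 29.0% of all regions. With TSS of all annotated genes the 5 kb share was 30.3%. WT pro-erythroblast overlap was 5.44% for a peak within 1 kb and 1.62% when at least 50% of the region had to be covered. In 2 alternatives chosen after seeing the data, regions were left out. Without regions holding a CG or CA run the median fold was 7.65, the 5 kb share 28.1% and the share near a promoter peak 19.3%. Without regions of over 50% repeated words the shares were 44.9% in genes, 29.6% within 5 kb of a TSS, 20.6% near a promoter peak, 1.23% with pro-erythroblast Mtf2 and 0.480% with erythroblast Mtf2. Peaks were called at different depths, so a region without a peak in another list may carry signal under the limit of that list.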
